A study of Homo sapiens with 8 samples.

Results

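Laminins are large secreted glycoproteins built from 1 alpha, 1 beta and 1 gamma chain, and they form the sheet of the basement membrane on which epithelial cells rest. The 9 laminin chain genes described here, LAMA1 to LAMA5, LAMB1, LAMB2, LAMB3 and LAMC1, were chosen by family from the 57992 genes counted in each sample. The family was chosen with the comparison of A20 siRNA and control siRNA in these samples already known, so the members' differences between the groups are given as a description, without p-values. LAMB4 and LAMC3 were not among the 9 and are named beside them where an assembly or a neighbouring gene calls for it.

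All samples came from RKO, an established human colon carcinoma cell line, grown in DMEM with fetal calf serum and given 50 ng/mL of recombinant wnt3a for 24 hours. Cells received control siRNA (n = 4) or A20 siRNA (n = 4), and RNAseq libraries were made from polyadenylated RNA. Every sample thus had both wnt3a and an siRNA, the knockdown was partial, and neither the labels nor the methods say whether the 4 replicates were separate experiments, so the errors given cover the spread between these samples, which may be technical. The number of cells with a transcript and the amount of RNA per cell cannot be told apart in such bulk samples.

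Total counts on genes were between 21226451 and 34194273 per sample. Levels are given as CPM, counts scaled to the normalised library size. TNFAIP3, which encodes A20, was at 5.47 ± 0.388 CPM in the controls and 3.32 ± 0.215 CPM after A20 siRNA (mean ± SD over 4 samples). The log2 fold change was -0.71 (SE 0.095, adjusted p = 0.00258 by the quasi-likelihood test of edgeR, adjusted by Benjamini-Hochberg). Of 10 colon epithelial markers, 4 passed the count filter (EPCAM, KRT8, KRT18 and CDX2), and CDH1, KRT19, KRT20 and CDX1 had no count in any sample. Among markers of other cell types VIM was at 19 to 21.5 CPM and CD68 at 0.736 to 1.44 CPM, and no other fibroblast, endothelial or white blood cell marker exceeded 4 counts in a sample.

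The 3 chains join through a coiled coil inside the cell, and the trimer is named by its chains, so that laminin 511 holds alpha 5, beta 1 and gamma 1. The alpha chain carries the globular domains that bind integrins and dystroglycan on the cell surface, and the beta and gamma chains take part in assembly and in the network between trimers. Laminin 111 is the form of early embryos, laminins 511 and 521 are found in most adult epithelial basement membranes, and laminin 332 anchors epithelia at hemidesmosomes.

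The stretch before the start site is shown for 3 chains that RKO transcribed, LAMA5, LAMC1 and LAMB3, and for LAMA3, the absent partner of LAMB3. LAMA5 and LAMC1 are chains of laminins 511 and 521, and LAMB3 and LAMA3 are the pair with the highest level and with no count. The sequences are from RefSeq (GRCh38.p14), 250 bases before the annotated start and read 5′ to 3′ on the strand of the gene, and the capitals mark CG dinucleotides. They lie at chr20:62367313-62367562 (minus strand) for LAMA5, chr1:183023170-183023419 (plus) for LAMC1, chr1:209652426-209652675 (minus) for LAMB3 and chr18:23872770-23873019 (plus) for LAMA3, where the start is an inner one, 183567 bases from the start of the reference transcript.
LAMA5: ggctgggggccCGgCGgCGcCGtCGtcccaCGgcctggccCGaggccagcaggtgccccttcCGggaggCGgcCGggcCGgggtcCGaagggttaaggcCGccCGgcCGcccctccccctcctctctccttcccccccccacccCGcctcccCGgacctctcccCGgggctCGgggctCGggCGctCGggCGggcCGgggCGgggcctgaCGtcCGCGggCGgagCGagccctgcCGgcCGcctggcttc
LAMC1: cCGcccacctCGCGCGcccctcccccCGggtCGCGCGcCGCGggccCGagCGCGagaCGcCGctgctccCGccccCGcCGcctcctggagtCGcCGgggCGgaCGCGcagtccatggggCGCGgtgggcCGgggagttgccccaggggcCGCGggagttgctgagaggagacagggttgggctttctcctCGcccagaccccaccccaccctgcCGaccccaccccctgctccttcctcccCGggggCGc
LAMB3: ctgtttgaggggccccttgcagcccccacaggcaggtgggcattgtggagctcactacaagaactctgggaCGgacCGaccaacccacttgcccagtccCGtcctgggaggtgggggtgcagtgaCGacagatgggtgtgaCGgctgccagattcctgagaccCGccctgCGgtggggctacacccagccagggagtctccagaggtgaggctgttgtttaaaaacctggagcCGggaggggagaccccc
LAMA3: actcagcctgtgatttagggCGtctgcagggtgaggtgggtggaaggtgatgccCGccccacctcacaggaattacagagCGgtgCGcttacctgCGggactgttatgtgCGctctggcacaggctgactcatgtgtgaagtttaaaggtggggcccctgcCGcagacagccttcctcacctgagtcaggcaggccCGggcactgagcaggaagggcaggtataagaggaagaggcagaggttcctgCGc

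The windows of LAMA5 and LAMC1 held 32 CG dinucleotides each, more than 90.5% of the 35116 windows of this length in the table, whose median was 11. LAMB1 held 28 and LAMB2 12. The window at the reference start of LAMB3, the most abundant chain, held 8, and those at its inner starts held 10 and 3. LAMA3, at an inner start, held 9 and LAMA2 held 9, and both had next to no transcript. LAMA4 held 5. LAMB3 thus had the highest level but fewer CG dinucleotides than LAMA5, which had the lowest level among the expressed chains only. The 7-letter sequences CTTTGAA and CTTTGAT, written for TCF/LEF factors, were searched on both strands and are present in 3.8% and 2.26% of all windows. CTTTGAA occurred once in the window of LAMA2, and neither occurred in the other chain windows of the table. No window was available for LAMA1 or LAMC3, so those genes were not searched. TGANTCA, the letters of an AP-1 site, is present in 6.57% of all windows and occurred at 2 places in that of LAMA3 and at 1 place before the innermost of the LAMB3 starts. These matches describe letters and not binding.

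In RKO cells 6 of the 9 chain genes were transcribed above the count filter, and the other 3, LAMA2, LAMA3 and LAMA4, had at most 3 counts in any sample. The beta 3 chain LAMB3 was by far the most abundant, and LAMA3, the gene of its alpha chain partner, had no count in any sample. Between the chains of gamma 1 laminins the levels were closer, with LAMA1 above LAMA5 among the alpha chains. Levels of different genes are compared as CPM per kilobase of exon, from the union of the annotated exons of each gene.

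LAMB3 (ENSG00000196878.13, chromosome 1, 209614870 to 209652425, GRCh38) had between 14161 and 21834 counts per sample. Its level was 144, 142, 140.4 and 145 CPM per kilobase in control replicates 1 to 4 and 137, 141, 143 and 143 in A20 siRNA replicates 1 to 4. The samples lay close together and the groups overlapped. The median of 143 was above 98.4% of the 13316 tested genes with a length. Per kilobase LAMB3 exceeded the other expressed beta chains, by a median of 21.6-fold over LAMB1 (from 19.7 to 23.5 in single samples) and 20.9-fold over LAMB2 (19.9 to 23). With the length of the MANE Select transcript, the single reference transcript of a gene, the ratio over LAMB1 was 7.6, as the exons of LAMB1 cover 18592 bases in all and 5650 in that transcript.

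LAMB3 encodes the beta chain of laminin 332, whose alpha chain is alpha 3. LAMA3 (ENSG00000053747.15, chromosome 18, 23689453 to 23956222) had 0 counts in all 8 samples. A count of 0 allows up to 3 counts per sample, which correspond to 0.00603 to 0.00973 CPM per kilobase for LAMA3, so LAMB3 was at least 14717-fold higher in each sample with the union of exons and at least 12525-fold higher with MANE Select lengths, the reference transcript lengths named above. Over the 8 samples LAMB3 made up 90.9% to 92.1% of the beta chain transcripts per kilobase with the union of exons. With MANE Select lengths it made up 83.6% to 85.7%.

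LAMC1 (ENSG00000135862.5, chromosome 1, 183023420 to 183145592) encodes gamma 1, the gamma chain of most laminins. It was at 23.4, 23.2, 23.9 and 24 CPM per kilobase in control replicates 1 to 4 and at 24.2, 22.6, 23.7 and 24 in A20 siRNA replicates 1 to 4. No sample stood apart. LAMC3, the gamma 3 chain, had 1 to 8 counts per sample and did not pass the filter. LAMB1 and LAMB4 are neighbours on chromosome 7, with 20.3 kb and no protein-coding gene between them. LAMB4 had 0 counts in all 8 samples, where LAMB1 had 2641 to 4425.

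The next levels belonged to LAMB2, LAMA1 and LAMB1, at medians of 6.78, 6.57 and 6.55 CPM per kilobase. Their ranges over the 8 samples overlapped (6.31 to 7.16, 6.4 to 6.93 and 6.17 to 6.93), so these 3 were not told apart. LAMB2 (chromosome 3, 49121114 to 49133118) encodes beta 2, the chain of synaptic and kidney filter laminins, LAMA1 (chromosome 18, 6941742 to 7117797) encodes alpha 1, and LAMB1 (chromosome 7, 107923799 to 108003213) encodes beta 1. This part of the order depended on the length used. With MANE Select lengths LAMB1 was at 21.5, LAMA1 at 10.8 and LAMB2 at 8.17, and their ranges no longer overlapped.

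LAMA5 (ENSG00000130702.14, chromosome 20, 62307955 to 62367312) had the lowest level of the 6 expressed chains, with a median of 3.43 CPM per kilobase (2.81 to 3.87). Its range did not overlap that of LAMB1 above it, nor that of LAMC3 below it. It was below the median of 5.11 over all tested genes. LAMA1 exceeded it in every sample, by 1.77-fold to 2.3-fold, and by 2.33-fold to 3.03-fold with MANE Select lengths.

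The remaining alpha chains were close to nothing. LAMA2 (chromosome 6, 128883138 to 129516566), the alpha chain of muscle, had 2, 0, 3 and 0 counts in control replicates 1 to 4 and 3, 0, 3 and 0 in A20 siRNA replicates 1 to 4. LAMA4 (chromosome 6, 112107931 to 112254939), the alpha chain of blood vessels, had 1 count in control replicate 3 and none elsewhere. No fold change is given for LAMA2, LAMA3 and LAMA4, since both groups were at or under 3 counts in each sample.

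**Figure D1:**
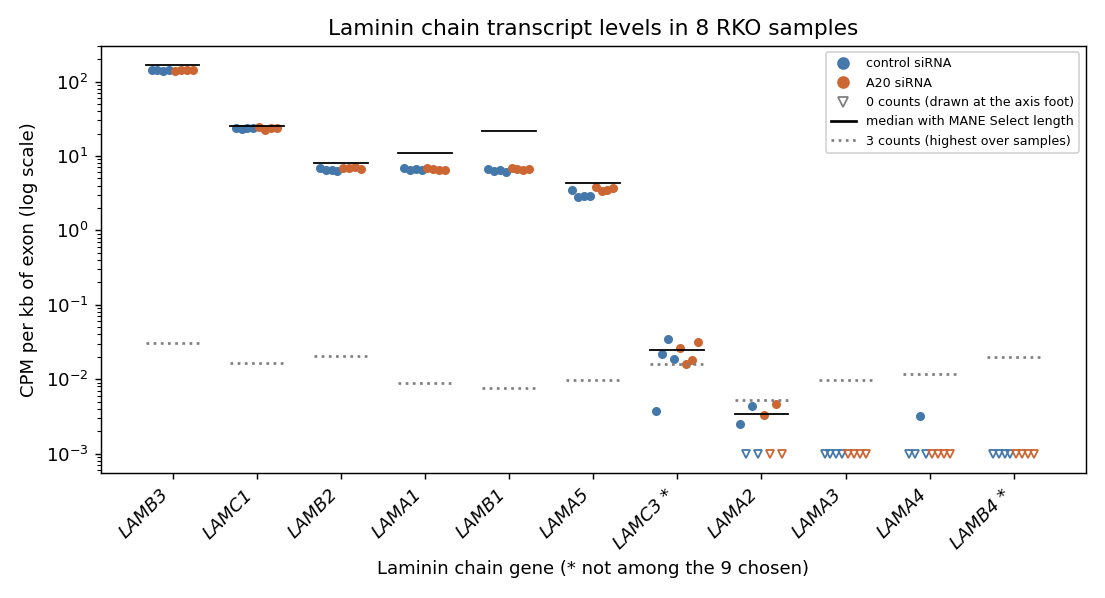
Level of each laminin chain gene in CPM per kilobase of exon (log scale) in the 4 control siRNA and 4 A20 siRNA samples, with the MANE Select median as a black line and the level of 3 counts as a dotted line. LAMB3 stands at 137 to 145, LAMC1 at 22.6 to 24.2, and LAMA2, LAMA3 and LAMA4 lie at or under the dotted line.

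These levels bear on which trimers RKO cells had the transcripts for. Of 13 known combinations of chains considered, 4 had all 3 genes above the count filter. For laminins 121 and 111 the scarcest transcript could not be named, since LAMA1, LAMB2 and LAMB1 overlapped and their order turned with the length used. The lowest of the 3 chains in each sample had a median of 6.51 CPM per kilobase for laminin 121 (6.31 to 6.91) and 6.5 for laminin 111 (6.17 to 6.93). With MANE Select lengths the lowest was LAMB2 for laminin 121 (8.17) and LAMA1 for laminin 111 (10.8). For laminins 511 and 521 it was LAMA5 with either length, at 3.43 (2.81 to 3.87) with the union of exons.

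Each of the other 9 combinations contained a chain with at most 8 counts in a sample. Laminins 311 and 321 lacked LAMA3 with 0 counts, laminins 411, 421 and 423 lacked LAMA4 with at most 1 count, and laminins 211, 221 and 213 had at most 3 counts of LAMA2. Laminin 523 had at most 8 counts of LAMC3. Laminin 332, the trimer of beta 3, was not among the 13, and it too needs LAMA3, so the most abundant chain transcript lacked that of its alpha chain partner in these cells. A transcript level does not show that a chain was translated or that a trimer was secreted.

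Summed over the chains that join gamma 1, LAMA1 and LAMA5 together were at 10.1 CPM per kilobase (9.23 to 10.8), LAMB1 and LAMB2 at 13.4 (12.5 to 13.8) and LAMC1 at 23.8. With MANE Select lengths the sums were 15.2, 30 and 25.3. The alpha chains were thus the scarcest class with either length, while the order of beta and gamma chains turned with the choice.

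The comparison of A20 siRNA with control siRNA asks which transcripts differ when A20 is knocked down under wnt3a. Across all 13412 genes tested 1.25% passed an adjusted p-value of 0.05 in edgeR's quasi-likelihood test, 0.634% as higher and 0.611% as lower. Of the 6 laminin chain genes tested 1 passed, LAMA5, which was higher with A20 siRNA; the choice of the family knew of this comparison, and nothing is read from the count. The log2 fold changes of the 6 ran from -0.02 to 0.26 with a median of 0.035, against a median of 0.0027 over all tested genes. None of the other 5 chain genes passed.

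LAMA5 encodes alpha 5, the main alpha chain of adult epithelial basement membranes. It was at 49.6, 40.1, 40.9 and 41.4 CPM in control replicates 1 to 4 and at 55.3, 48.3, 49.8 and 52.4 CPM in A20 siRNA replicates 1 to 4. Control replicate 1 stood above the other 3 controls and above A20 siRNA replicate 2, so the groups overlapped. Across all tested genes every A20 siRNA sample lay above every control in 3.71% and below every control in 3.9%, and none of the 6 chain genes was among either. In each same-numbered set the A20 siRNA sample was the higher for LAMA5. The share of all tested genes with this pattern was not counted, and the labels do not say that such samples are pairs. Nothing is therefore read from it. The means were 43 ± 4.44 CPM and 51.4 ± 3.08 CPM (SD, n = 4 each), and the log2 fold change was 0.26 (SE 0.056). Without control replicate 1 it was 0.34, and that fit called 7.37% of the genes it tested.

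LAMA5 was past the threshold in 2 of the 8 fits that each left out 1 sample, those without control replicate 1 and without A20 siRNA replicate 2. It was not past it without control replicate 2 (log2 fold change 0.22), control replicate 3 (0.23), control replicate 4 (0.24), A20 siRNA replicate 1 (0.21), A20 siRNA replicate 3 (0.27) or A20 siRNA replicate 4 (0.25). Of these 6 fits, 5 called between 0.0886% and 0.377% of the genes they tested, and the one without A20 siRNA replicate 1 called 1.48%. LAMA5 was higher with A20 siRNA in all 8, but these fits share most of their samples, so this is no further evidence for a difference. Of its exonic bases 1.71% are shared with ADRM1 and 0.826% with LAMA5-AS1, both on the opposite strand, and whether the counting used strand is not given in the sources used here.

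**Figure D2:**
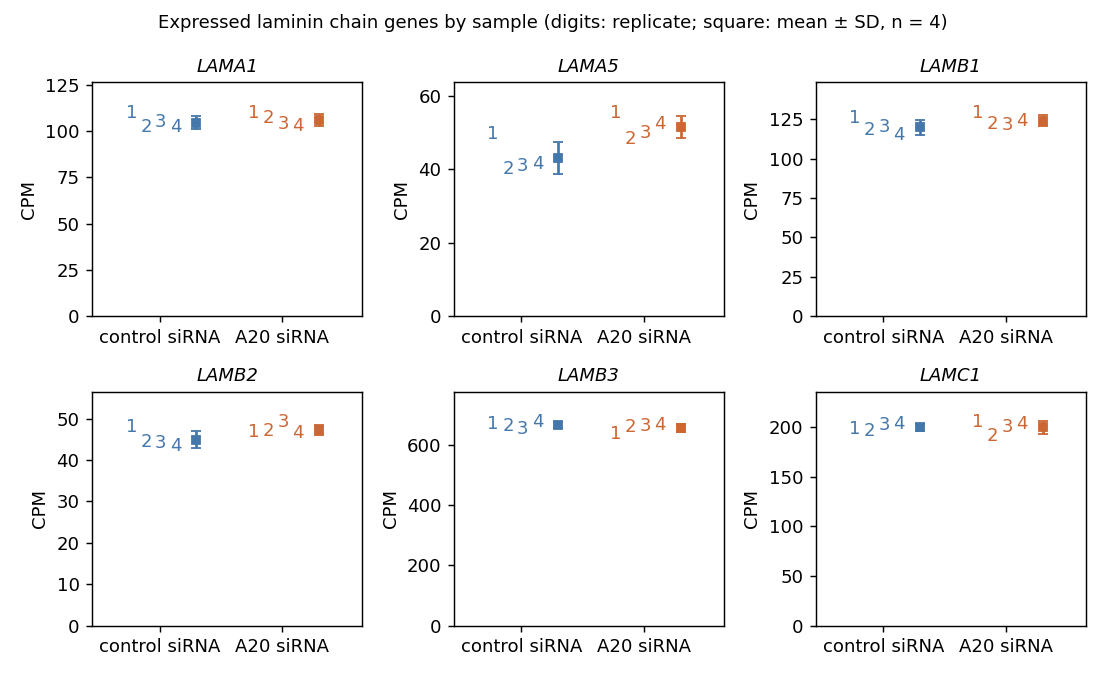
CPM of the 6 expressed laminin chain genes by group, with the replicate number as the plotting symbol and the mean ± SD (n = 4) as a square beside it; every axis starts at 0. LAMA5 lies at 40.1 to 41.4 CPM in control replicates 2 to 4 and at 48.3 to 55.3 in the A20 siRNA samples. Control replicate 1, at 49.6, lies within the A20 siRNA range, and the groups of all 6 genes overlap.

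The alpha 1 chain gene LAMA1 was at 104 ± 3.7 CPM in the controls and 106 ± 3.23 CPM after A20 siRNA (mean ± SD over 4 samples), with a log2 fold change of 0.021 (SE 0.029). Of alpha chain transcripts per kilobase, LAMA5 took 31.3% ± 1.48 in the controls (30.2% to 33.4%) and 35% ± 1.25 after A20 siRNA (33.4% to 36.1%). The groups met at 33.4%. The ratio of LAMA1 to LAMA5 was 2.2 ± 0.145 in the controls and 1.86 ± 0.104 after A20 siRNA. These values use the union of exons and depend on the length. With MANE Select lengths LAMA5 took 25.7% ± 1.32 in the controls and 29.1% ± 1.13 after A20 siRNA. The ratio then ran from 2.33 to 3.03 over all samples.

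Among the beta chain genes LAMB1 was at 119.9 ± 4.77 CPM and 124 ± 3.44 CPM (log2 fold change 0.05, SE 0.029), and LAMB2 at 44.9 ± 2.03 and 47.3 ± 1.25 (0.072, SE 0.036), with control siRNA first in each (SD, n = 4 each). The A20 siRNA sample was the higher in 4 of 4 same-numbered sets for LAMB1, 3 for LAMB2, 1 for LAMB3 and 2 for LAMC1. The share over all tested genes was not counted here either, so nothing is read from these sets. LAMB3 was at 669.7, 661, 653 and 674 CPM in control replicates 1 to 4 and at 636, 658, 663 and 665 in A20 siRNA replicates 1 to 4, with a log2 fold change of -0.02 (SE 0.022). LAMC1 had means of 199.7 ± 3.21 and 199.6 ± 6.11 CPM (SD, n = 4 each), and its log2 fold change was 1.2e-05 (SE 0.025). For these genes the groups overlapped.

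**Figure D3:**
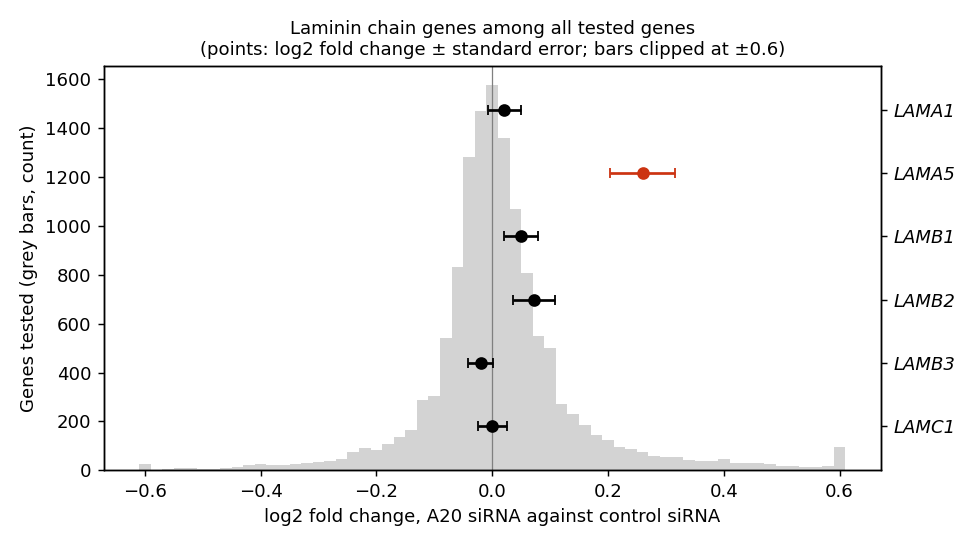
Log2 fold change (A20 siRNA against control siRNA) of the 6 expressed laminin chain genes with standard errors, over a histogram of the 13412 tested genes in grey, with values past 0.6 in either direction placed in the outermost bars. LAMA5 at 0.26 lies in the upper tail, and the other 5 genes, from -0.02 to 0.072, lie in the centre.

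LAMA5 is long and rich in G and C. Its exonic length of 14291 bases was at or above that of 94.3% of tested genes, and its GC content of 65.7% at or above that of 98%. The samples differed in how far long genes were over- or under-represented. Spearman's rho across genes between a sample's deviation from the mean of all samples and exonic length was 0.0794, -0.164, -0.111 and -0.2 in control replicates 1 to 4, and 0.0686, -0.0816, 0.144 and 0.178 in A20 siRNA replicates 1 to 4. Control replicate 1, the control with the highest LAMA5, was the control with a positive trend with length. A20 siRNA replicate 2, the A20 siRNA sample with the lowest LAMA5, was the one with a negative trend. For GC content rho was -0.0585, 0.0711, -0.0433 and 0.128 in control replicates 1 to 4. It was -0.009, 0.159, -0.0778 and -0.137 in A20 siRNA replicates 1 to 4, highest in replicate 2. Whether either trend bears on the LAMA5 levels was not tested.

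With each sample's trend with length and GC content taken out, LAMA5 was at 49.3, 40.5, 41.6 and 42.2 CPM in control replicates 1 to 4 and at 54.6, 48.2, 49.2 and 51.6 in A20 siRNA replicates 1 to 4, and the log2 fold change was 0.23. Control replicate 1 was still the highest control. LAMA1 and LAMB1, the tested chain genes with more exonic bases than LAMA5, had log2 fold changes of -0.0085 and 0.012 with the correction.

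**Figure D4:**
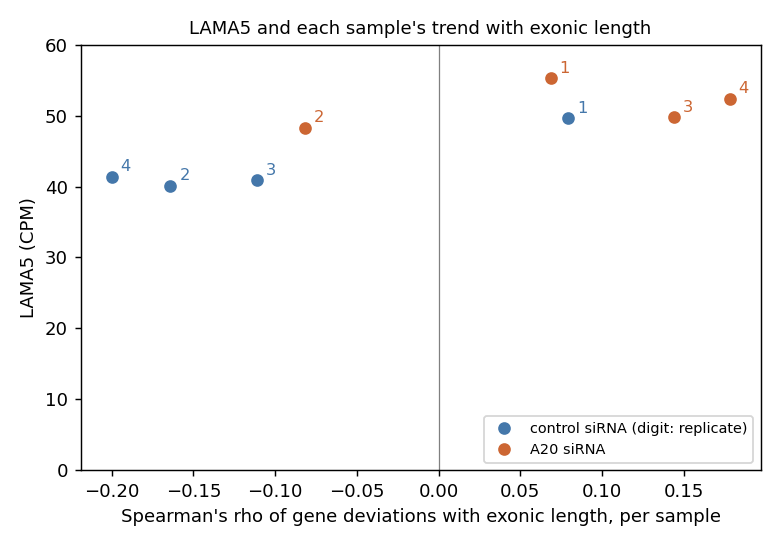
LAMA5 in CPM against the Spearman's rho between gene deviations and exonic length, 1 point for each of the 8 samples, numbered by replicate. The 3 controls with a negative trend lie at 40.1 to 41.4 CPM, and control replicate 1, with a positive trend, lies at 49.6. A20 siRNA replicate 2, with a negative trend, lies at 48.3. A20 siRNA replicates 1, 3 and 4, with positive trends, lie at 49.8 to 55.3.

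The genes whose deviations from their group means were most like those of LAMA5 over the 8 samples were ranked among 11909 genes with a median of at least 1 CPM, and 4 of the closest 5 were BAZ2B (Pearson's r 0.993), SMG1 (0.99), ZNF106 (0.987) and RANBP2 (0.982). These values describe samples that share library and depth effects. These 4 are long, with exonic lengths from 12226 to 26842 bases against a median of 4982 over tested genes, and their GC content, from 37.7% to 44.1%, was below that of LAMA5. Without control replicate 1, 2 of the 5 stayed among the closest 5. Of the laminin chain genes LAMB1 was closest to LAMA5 (r = 0.847) and LAMA1 next (0.729), LAMB2 and LAMC1 followed (0.566 and 0.287), and LAMB3 did not follow it (-0.0817).

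**Figure D5:**
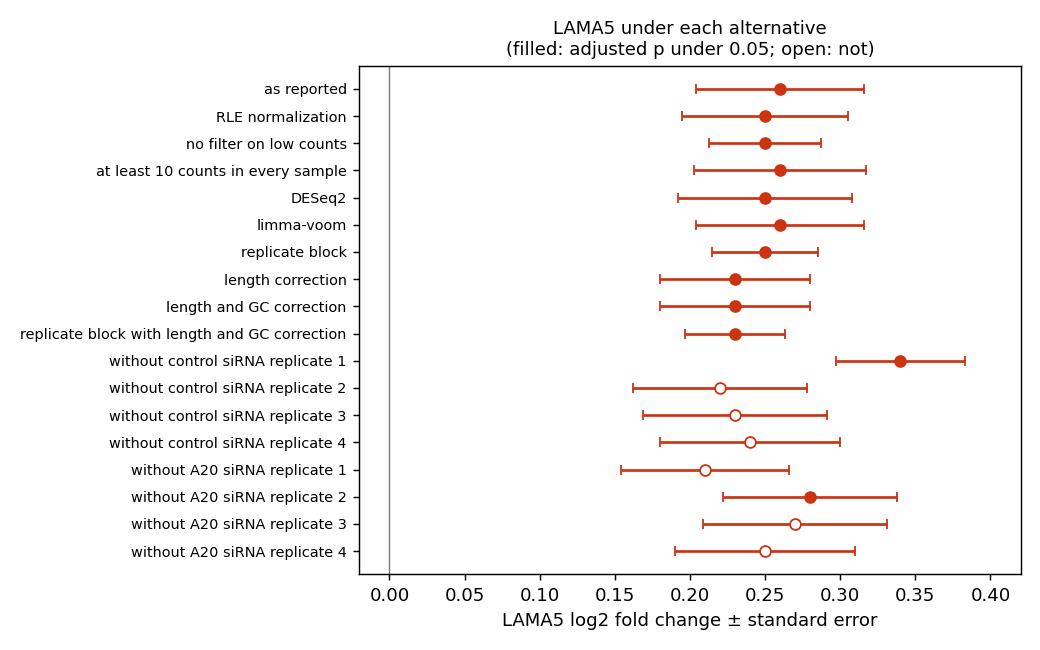
Log2 fold change of LAMA5 with its standard error as reported and under each alternative setting, filled where it passed an adjusted p-value of 0.05. The values run from 0.21 to 0.34, and the open points are 6 of the 8 fits that left out 1 sample.

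Laminins act with a set of other proteins, and 76 of these in 6 lists were counted beside the chains. In edgeR's quasi-likelihood test 44 of the 76 were tested and none passed the threshold in either direction, with 9 at an unadjusted p-value under 0.05 (20.5%, against 16.2% of all tested genes). DESeq2 called 1 of them, RPSA as lower, and limma-voom called 0. Their median log2 fold change was 0.0026, with 22 above 0 and 22 below, against a median of 0.0027 over all tested genes.

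Of 13 laminin receptors 11 were tested and none passed, with log2 fold changes from -0.10 to 0.10. The integrin beta 1 subunit ITGB1, which pairs with the alpha 3, alpha 6 and alpha 7 subunits to bind laminin, was at 2222 ± 30.8 CPM and 2211 ± 49.6 CPM in the controls and after A20 siRNA (SD, n = 4 each). RPSA, a ribosomal protein also known as a laminin receptor, was at 1009 ± 40.1 and 939 ± 27.9 CPM. Its log2 fold change of -0.10 (SE 0.027) did not pass (adjusted p = 0.0595 by edgeR). It passed as lower, at -0.13 to -0.10, in 8 of the 17 alternative fits: without the count filter, with DESeq2, with the replicate number as a block, corrected for length alone, corrected for length and GC content, blocked and corrected for both, without control replicate 1 and without A20 siRNA replicate 2. Reads shared with its many processed pseudogenes make its count uncertain. ITGB4, the integrin chain of hemidesmosomes and receptor of laminin 332, had at most 2 counts in a sample; it was named after its values were seen.

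Of 22 basement membrane partners 4 were tested, and none passed. The proteoglycan AGRN was at 56.5 ± 2.62 and 57.3 ± 2.28 CPM and the adhesion protein FRAS1 at 45.2 ± 4.32 and 47.9 ± 1.21 CPM with control and A20 siRNA (SD, n = 4 each). The other 2 tested partners were the proteoglycan HSPG2 (perlecan), at 20.2 ± 1.31 and 22.6 ± 1.98 CPM, and the collagen COL18A1, at 1.36 ± 0.333 and 1.69 ± 0.419 CPM. HSPG2 passed as higher with the replicate number as a block (0.16). Among the 18 partners not tested were the collagen IV and nidogen genes, and these, HSPG2 and COL18A1 were picked out after their values were seen. No collagen IV gene from COL4A1 to COL4A6 exceeded 4 counts in a sample, NID1 had none and NID2 at most 7. Collagen IV forms the other network of the basement membrane, and nidogens link it to laminin.

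The 9 genes of netrins and other proteins with laminin-type domains had 4 tested and none past the threshold. ATRN, the most abundant, was at 148 ± 1.54 and 153 ± 2.36 CPM, and the netrin NTN1 at 19.4 ± 1.2 and 19.6 ± 1.06 CPM. Of 13 enzymes that build the laminin-binding glycan of dystroglycan 12 were tested and none passed, with POMGNT1, which extends the sugar chain, at 86.7 ± 1.25 and 87.9 ± 1.77 CPM. Of 10 laminin processing enzymes 5 were tested and none passed, with the protease CTSB at 173 ± 6.1 and 165 ± 3.31 CPM and the collagen-modifying PLOD3 at 141 ± 1.32 and 145 ± 4.18 CPM. All of these are given with control siRNA first (SD, n = 4 each). CTSB passed as lower without control replicate 1 (-0.089).

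Of 9 linkers between adhesion receptors and the cytoskeleton 8 were tested and none passed, with log2 fold changes from -0.32 to 0.14. Talin 1, TLN1, was at 447 ± 8.51 and 446 ± 12 CPM, and plectin, PLEC, at 390.3 ± 20.9 and 421 ± 11.8 CPM in the controls and after A20 siRNA (SD, n = 4 each), with a log2 fold change for PLEC of 0.11 (SE 0.031, adjusted p = 0.0795 by edgeR). PLEC passed as higher without the count filter (0.11), with the replicate number as a block (0.11), blocked and corrected for length and GC content (0.077) and without control replicate 1 (0.14). The hemidesmosome linker DST, named after its values were seen, passed as higher without the count filter (0.14), with the block (0.14) and without control replicate 1 (0.21).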

How the data were processed

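Raw counts were deposited for 8 RKO samples. Per the labels and methods, the authors trimmed reads with Trimmomatic, mapped them to GRCh38.p7 with STAR and counted uniquely mapping reads per gene of a GENCODE annotation, whose release and strand setting are not given in the sources used here. Reads over 2 overlapping genes may be lost from such counts (for LAMA1, 10.3% of exonic bases are shared with an opposite-strand RNA). The deposited counts are not normalized. Column 2 of each file was used, and identifiers were matched without version to GENCODE release 44 on GRCh38 (56948 of 57992). edgeR 4.0.16 in R 4.3.3 was used with filterByExpr (minimum count 10, 13412 genes kept), TMM, the quasi-likelihood test without covariates and Benjamini-Hochberg adjustment over all tested genes (threshold 0.05). DESeq2 1.42.0 and limma-voom (limma 3.58.1) were alternatives. Levels per kilobase used the union of exons. Trends with length and GC content were fitted per sample by loess (span 0.5). Same-numbered samples were checked for pairing. Members, lists and the rule for named genes (all 9 chain genes, list genes past the threshold, the 2 most abundant of each list, the 5 most like LAMA5 and TNFAIP3) were chosen with earlier results of these data known. Some genes the rule names, and combinations of chains that need them, are not reported here. At these depths 3 counts correspond to 0.0874 to 0.141 CPM, and floors cover counting error only.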

Additional observations from a re-analysis of the deposited data

Results flagged for a closer look

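In 14 sets of 4 samples (the 6 expressed chain genes and TNFAIP3 in each group), 2 held a single sample far from the other 3, where chance gives about 1 in 20. LAMA5 was at 49.6 CPM in control replicate 1 against 40.1 to 41.4 CPM in the other controls, a gap of 0.867 of the group's range. TNFAIP3 was at 3 CPM in A20 siRNA replicate 2 against 3.4 to 3.47 CPM in the other A20 siRNA samples, a gap of 0.847 of the range.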

How the results depend on the processing

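LAMA5 was higher with A20 siRNA in all 17 alternative fits and past the threshold in 11 of them, with 6 losses, all on leaving out 1 sample (log2 fold change 0.21 to 0.34). These fits reuse the same samples, and the family was chosen with this comparison known. The tally therefore describes how the call depends on processing and is no further evidence for a difference. The number of laminin chain genes called was 0 to 1 in those fits and 1 in the others. None of the other 5 chain genes passed in any of them, and all 102 refitted fold changes moved by less than 1 SD between replicates.

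Against 167 genes called in all, there were 624 without a low-count filter and 12 (without A20 siRNA replicate 3) to 997 (without control replicate 1) with 1 sample left out. DESeq2 called 83 higher and 122 lower against 85 and 82, and gave TNFAIP3 no adjusted p-value. Against 0 genes of the laminin lists called, there were 3 without the filter, 1 with DESeq2, 1 with the length correction, 1 with the length and GC correction and 0 to 4 with 1 sample left out. The causes were not tested.

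A fit that blocked on replicate number called 474 genes, 4 of them in the lists, and adding the correction for length and GC to that block gave 438, 2 of them in the lists. The block changed no call among the chain genes. Deviations of same-numbered samples correlated by -0.0225 to 0.105, with a mean of 0.0482 against -0.016 for samples of different numbers. Of the 8 samples 5 correlated best with their own number. The labels do not say what a shared number means, and these values do not settle whether the samples are pairs. The main fit did not treat them as pairs.

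With MANE Select lengths the median levels were 165 (LAMB3), 25.3 (LAMC1), 21.5 (LAMB1), 10.8 (LAMA1), 8.17 (LAMB2) and 4.28 (LAMA5) CPM per kilobase. The scarcest transcript was then LAMB2 at 8.17 for laminin 121, LAMA1 at 10.8 for laminin 111 and LAMA5 at 4.28 for laminins 511 and 521. The levels moved by less than 1 SD with RLE normalization or 1 sample left out. Of the 5 genes most like LAMA5, 1 was shared by Spearman's rho and 2 without control replicate 1.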
